A study of Mus musculus with 40 samples.

Results

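The comparison described here was between the midbrain of MPTP-treated mice that received SU-Eohyeol pharmacopuncture (SUEHP, group MPTP-SU) and the midbrain of MPTP-treated mice that received saline at the same acupoint (group MPTP-Veh), with 4 libraries in each group. The 8 libraries were chosen by their labels from the 40 libraries of the series, which covers midbrain and spinal cord in 5 groups. All animals were male C57BL/6N mice of 8 weeks. MPTP was given intraperitoneally at 20 mg/kg in 4 injections 2 h apart, and both groups carried this lesion. From 1 week later, SUEHP or saline was injected at GB34, an acupoint below the knee, in 4 sessions at a rate of a pair of sessions per week. The other midbrain groups were Con (saline only) and SUEHP-treated MPTP mice that also received the CB1 antagonist given in the labels as SR141714A at 3 mg/kg (MPTP-SU+S) or the PPARγ antagonist T0070907 at 5 mg/kg (MPTP-SU+T). Neither the labels nor the methods say whether a library was made from 1 animal or from a pool, so p-values measure the spread between these libraries.

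MPTP is a toxin whose metabolite enters dopaminergic neurons through the dopamine transporter and blocks complex I of the mitochondrial respiratory chain, and the dopaminergic cells of the substantia nigra in the midbrain are the classical target. Complex I passes electrons from NADH into the chain, and its subunits are encoded partly in the nucleus and partly in mitochondrial DNA. SUEHP is a herbal injection that contains deer antler extract, and the study asked whether it acts through the cannabinoid receptor CB1 or the nuclear receptor PPARγ.

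The 8 libraries held 11958200 to 16639823 estimated counts each. MPTP-Veh replicate 4 stood apart from the other 7 libraries. Mitochondrially encoded messages took 1.35% of its counts, against 9.92% to 15.9% in the others, and its Spearman rank correlation with the median midbrain profile was 0.888, against 0.989 to 0.994. Counts of genes are therefore given from a fit over the 20 midbrain libraries and from a fit over 19 without this library, and for single genes the fold change is that without it, with the log2 fold change in 20 libraries at the end of the same bracket for the genes described in full. The tissue label was checked with 39 Hox genes, which mark the hindbrain and spinal cord: their summed level was 0.82 to 10.5 CPM (counts scaled to the TMM-adjusted library size) in the 8 midbrain libraries and 930 to 1010 CPM in the 8 spinal cord libraries of the same groups.

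**Figure D1:**
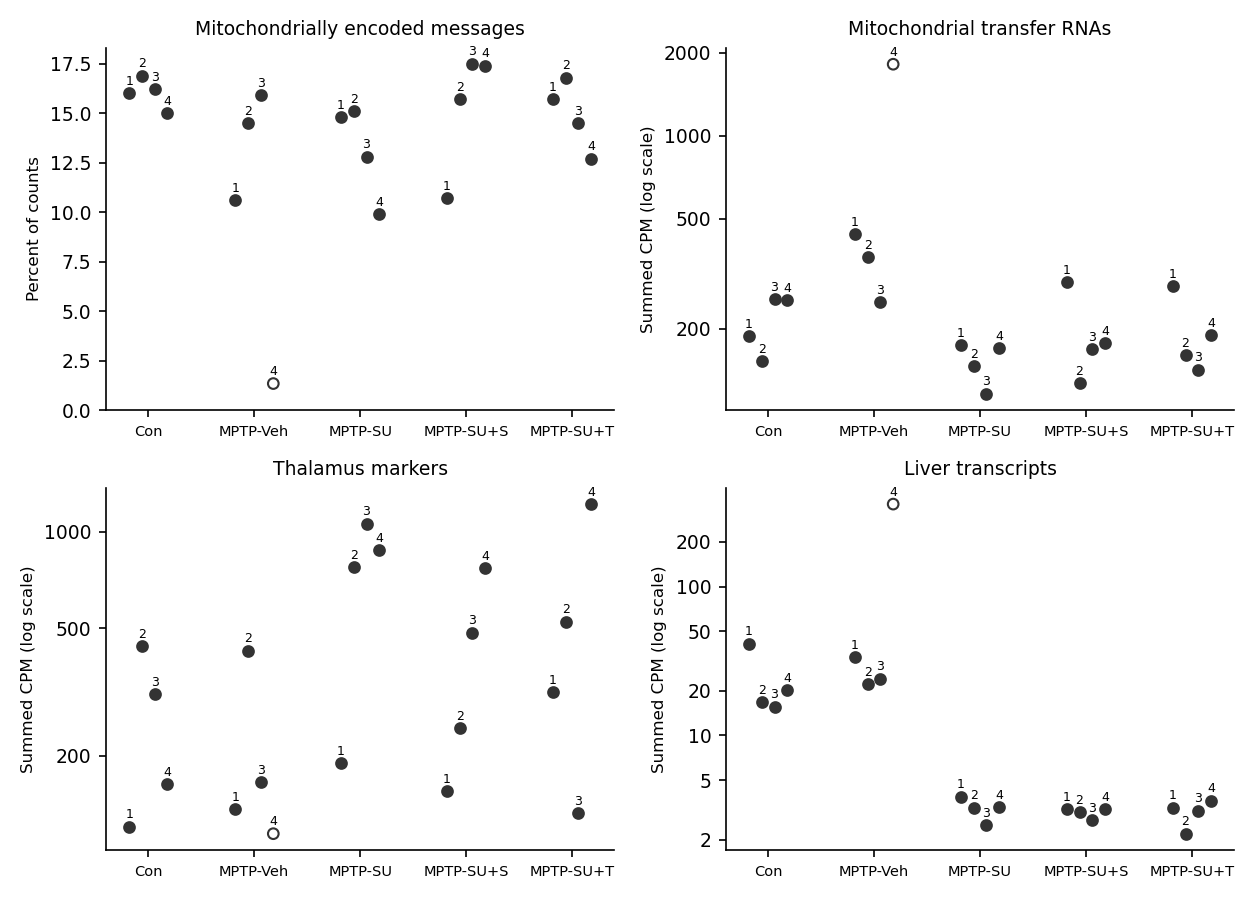
Each point is 1 midbrain library, numbered by replicate and grouped on the horizontal axis, with MPTP-Veh replicate 4 as an open circle. The panels plot the percent of counts on 13 mitochondrially encoded messages (linear axis) and the summed CPM of 22 mitochondrial transfer RNAs, 7 thalamus markers and 15 liver transcripts (log axes). MPTP-Veh replicate 4 lies at 1.35% in the first panel and at 358 CPM in the last, where all 12 SUEHP-treated libraries lie under 4 CPM.

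A differentially expressed gene (DEG) was one with a Benjamini-Hochberg adjusted p under 0.05 in edgeR's quasi-likelihood test, the source of all adjusted p-values of single genes unless limma is named, and a change of more than 1.5-fold. In all 20 libraries 2237 of 16629 tested genes were DEGs (13.5%), of which 724 were higher in MPTP-SU (4.35%) and 1513 lower (9.10%). With the 8 libraries of the comparison fitted alone edgeR called 0 DEGs, with 3219 genes at an unadjusted p under 0.05, while the 7 libraries without MPTP-Veh replicate 4 gave 574, of which 532 were among the 2237. Without MPTP-Veh replicate 4 the number fell to 572 of 16831 (3.40%), with 221 higher (1.31%) and 351 lower (2.09%). Both fits called 538 genes in the same direction, 207 higher and 331 lower, which is 24.1% of the DEGs of the 20-library fit and 94.1% of those without replicate 4. None of the 2237 DEGs had the opposite sign without that library.

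**Figure D2:**
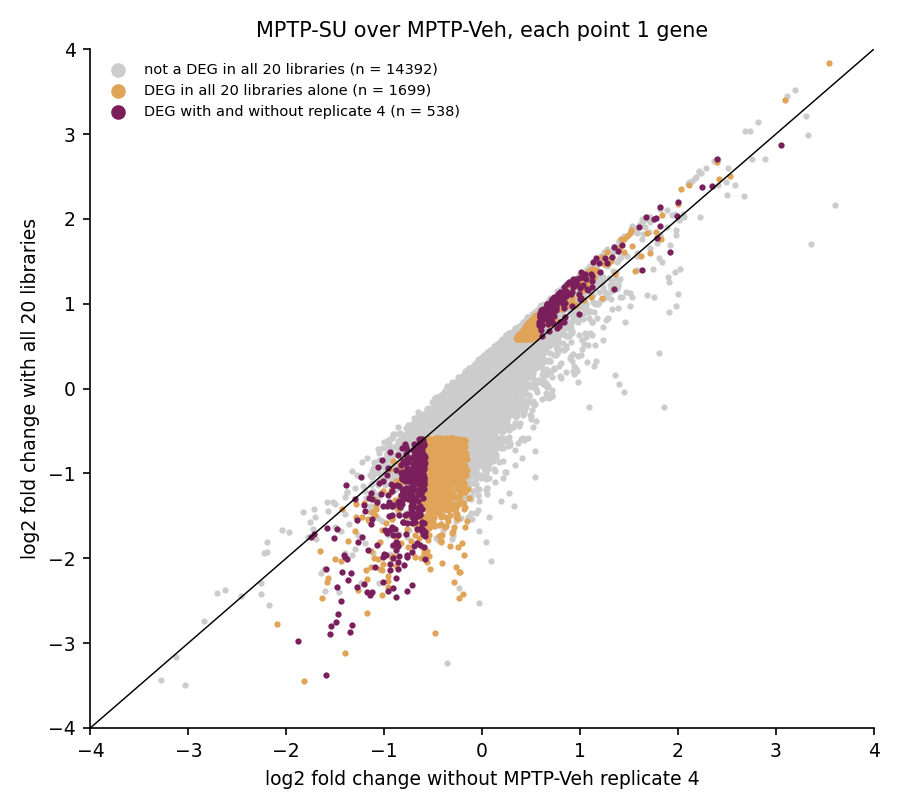
Each point is 1 of 16585 genes, placed by its log2 fold change (MPTP-SU over MPTP-Veh) without MPTP-Veh replicate 4 on the horizontal axis and with all 20 libraries on the vertical axis. The diagonal marks equal values, and 44 genes beyond a log2 fold change of 4 are not drawn. The 1699 genes that were DEGs in all 20 libraries alone lie mostly below the diagonal, closer to 0 on the horizontal axis than on the vertical one.

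Among genes that were DEGs in both fits with non-overlapping groups and a mean of at least 5 CPM, of which there were 146 rising and 262 falling, the 12 with the largest rise were Ptpn4, Kitl, Pdp1, Vav3, Tlcd4, Gpr63, Il1rapl1, Megf9, Cbln4, mt-Rnr2, Edil3 and Tiparp. Across all tested genes the 4 libraries of each group did not overlap for 21.9%. For these 12 genes and the 12 falling genes below, non-overlap was a condition of the choice and no separate result.

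Ptpn4, a cytoplasmic tyrosine phosphatase, was at 52.9, 89.3, 62.1 and 12.6 CPM in MPTP-Veh replicates 1 to 4 and at 125, 302, 302 and 231 CPM in MPTP-SU replicates 1 to 4. Kitl, the ligand of the receptor tyrosine kinase Kit, was at 19.1, 30.9, 27.5 and 5.83 CPM against 41.5, 96.1, 103 and 74.3 CPM. In both genes MPTP-Veh replicate 4 was the lowest library and MPTP-SU replicate 1 was the lowest of its group. By the rule of choice the groups did not overlap. The rise without MPTP-Veh replicate 4 was 3.52-fold for Ptpn4 (log2 fold change 1.82, SE 0.424, adjusted p = 0.00805, log2 2.14 in 20 libraries) and 3.04-fold for Kitl (1.60, SE 0.418, adjusted p = 0.015, log2 1.91 in 20 libraries).

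Pdp1 encodes the phosphatase that activates pyruvate dehydrogenase, the enzyme that feeds pyruvate into the citric acid cycle. It was at 65, 106, 78 and 26.8 CPM in MPTP-Veh and at 110, 260, 298 and 229 CPM in MPTP-SU. MPTP-SU replicate 1 lay just above the highest MPTP-Veh library and the other MPTP-SU libraries lay far above it. The change was 2.70-fold without replicate 4 (log2 1.43, SE 0.412, adjusted p = 0.0258, log2 1.70 in 20 libraries). Vav3, an exchange factor for small GTPases, was at 13.5, 21.7, 15.2 and 6.68 CPM against 26.5, 46, 51.7 and 44.7 CPM, a 2.5-fold rise (log2 1.32, SE 0.365, adjusted p = 0.0204, log2 1.55 in 20 libraries). Here too MPTP-SU replicate 1 was the lowest of its group.

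Several of the rising genes act at synapses or on the cell surface. Il1rapl1, a synaptic adhesion protein, was at 7.24, 8.37, 8.19 and 3.01 CPM in MPTP-Veh and 16.5, 20.9, 13 and 16 CPM in MPTP-SU, a 2.08-fold rise without replicate 4 (log2 1.06, SE 0.223, adjusted p = 0.00434, log2 1.29 in 20 libraries). Cbln4, a secreted synapse organiser of the cerebellin family, was at 20, 25.7, 19.9 and 10.4 CPM against 41.3, 45.8, 44.7 and 46.9 CPM, a 2.04-fold rise (log2 1.03, SE 0.272, adjusted p = 0.0163, log2 1.23 in 20 libraries). For Cbln4 the 4 MPTP-SU libraries lay close together, with none of them set apart.

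Edil3, a secreted ligand of integrins, was at 138, 171, 158 and 49.4 CPM against 273, 342, 323 and 257 CPM, a 1.92-fold rise (log2 0.94, SE 0.173, adjusted p = 0.00176, log2 1.21 in 20 libraries). Megf9, a membrane protein with EGF-like repeats, was at 9.1, 6.48, 7.53 and 2.16 CPM against 16.6, 14.4, 15.9 and 16.4 CPM, a 2.06-fold rise (log2 1.04, SE 0.16, adjusted p = 0.000482, log2 1.31 in 20 libraries). By the rule of choice every MPTP-SU library was above every MPTP-Veh library in both genes, and the MPTP-SU libraries differed little among themselves. Tiparp, an ADP-ribosyltransferase induced by the aryl hydrocarbon receptor, was at 7, 8.24, 11.7 and 2.07 CPM against 15.2, 18.6, 18.9 and 16.1 CPM, a 1.91-fold rise (log2 0.93, SE 0.182, adjusted p = 0.00274, log2 1.23 in 20 libraries). Its Con libraries lay at 11.9 to 15.2 CPM, between the groups compared. Tlcd4, a multi-pass membrane protein, rose 2.29-fold (adjusted p = 0.00484, log2 1.48 in 20 libraries), and Gpr63, an orphan G protein-coupled receptor, rose 2.18-fold (adjusted p = 0.0419, log2 1.27 in 20 libraries).

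**Figure D3:**
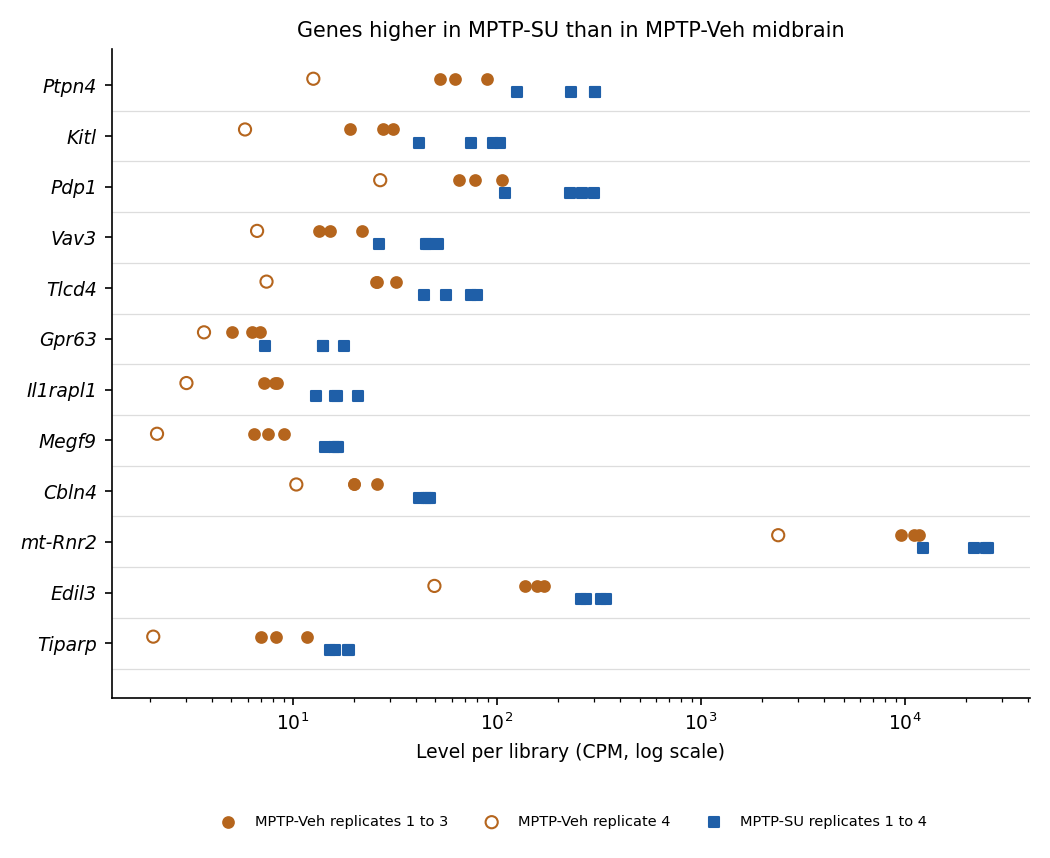
Each row is 1 of the 12 genes with the largest rise, and each symbol 1 library at its level in CPM (log axis), with MPTP-Veh replicates 1 to 3 as filled circles, MPTP-Veh replicate 4 as an open circle and the 4 MPTP-SU libraries as squares. The open circle is the leftmost symbol of every row. No square lies left of a circle of its row, which the rule of choice required.

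Markers of the thalamus were higher in some MPTP-SU libraries, and Ptpn4, Kitl, Pdp1 and Vav3 shared with them the low level of MPTP-SU replicate 1, while Megf9 was highest in that library and Cbln4 was nearly even across the group. The thalamus borders the midbrain, and its markers are a sign of how much adjacent tissue a dissection holds. The summed level of 7 thalamus markers was 136, 425, 165 and 114 CPM in MPTP-Veh replicates 1 to 4 and 189, 776, 1060 and 874 CPM in MPTP-SU replicates 1 to 4. MPTP-SU replicates 2 to 4 were above all MPTP-Veh libraries, MPTP-SU replicate 1 was not, and the groups overlapped. Prkcd, a protein kinase C abundant in thalamic relay neurons, was at 29.2, 155, 38.5 and 11.2 CPM against 58.6, 366, 538 and 412 CPM. Neither Prkcd (log2 fold change 2.21 without replicate 4, adjusted p = 0.133) nor any of the other markers was a DEG, with 0 of 7 called in both fits and a median log2 fold change of 1.67 in 20 libraries and 1.36 without replicate 4. All 7 markers were above 0 in all 5 groups.

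With the mean log2 CPM of the thalamus markers as a covariate, a setting chosen after the values were seen, 38 DEGs were called in 20 libraries, where 3817 genes had an unadjusted p under 0.05, and 353 without MPTP-Veh replicate 4. All 538 genes called in both fits kept the sign of their change with this covariate. Of these 538, 35 were called with the covariate in 20 libraries and 293 without replicate 4. Of the 12 rising genes described above, 10 were still called with the covariate when replicate 4 was left out, while Cbln4 (log2 0.69, adjusted p = 0.0537) and Gpr63 (0.50, adjusted p = 0.176) were not. The log2 fold change without replicate 4 became smaller with the covariate for Ptpn4 (1.82 to 1.01), Kitl (1.60 to 0.80), Pdp1 (1.43 to 0.61) and Vav3 (1.32 to 0.66), and stayed near its value for Megf9 (1.04 to 1.05) and mt-Rnr2 (0.96 to 1.05). Of the 12 falling genes below, 9 were still called. Those not called were TrnT (log2 -1.49 to -1.38, adjusted p = 0.0536), TrnY (-1.43 to -1.23, adjusted p = 0.0574) and Cyp26b1 (-1.59 to -1.20, adjusted p = 0.0827).

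Most transfer RNAs made from mitochondrial DNA were lower in MPTP-SU. Transfer RNAs carry amino acids to the ribosome, and mitochondria make a full set of their own from their circular genome. There were 5 mitochondrial transfer RNAs among the 12 genes with the largest fall, and their sequences are shown because they are the members named by the rule, with the anticodon, the bases that read the codon, in capitals. The sequences are the GENCODE transcripts of the same position on GRCm38 as the RefSeq genes (TrnP chrM:15356-15422, minus strand, TrnH chrM:11546-11612, plus strand, TrnT chrM:15289-15355, plus strand, TrnV chrM:1025-1093, plus strand, and TrnY chrM:5260-5326, minus strand), written 5′ to 3′ as DNA.
TrnP: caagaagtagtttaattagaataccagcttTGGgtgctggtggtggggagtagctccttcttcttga
TrnH: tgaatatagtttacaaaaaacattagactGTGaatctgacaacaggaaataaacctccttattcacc
TrnT: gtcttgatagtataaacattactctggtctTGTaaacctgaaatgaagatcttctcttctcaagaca
TrnV: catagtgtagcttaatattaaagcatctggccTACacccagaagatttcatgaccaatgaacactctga
TrnY: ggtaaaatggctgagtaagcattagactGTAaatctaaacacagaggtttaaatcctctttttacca

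TrnH, the transfer RNA for histidine, was at 42.9, 36.9, 31 and 243 CPM in MPTP-Veh replicates 1 to 4 and at 16.4, 12.4, 8.48 and 13.4 CPM in MPTP-SU. TrnV, for valine, was at 69.5, 60.3, 44.9 and 247 CPM against 23.3, 19.7, 13.6 and 26.6 CPM. TrnP, for proline, was at 18.1, 14.7, 8.62 and 149 CPM against 5.3, 4.37, 3.49 and 5.06 CPM. MPTP-Veh replicate 4 was far above all other libraries in each of them. The remaining MPTP-Veh libraries lay above every MPTP-SU library, which the rule of choice required. Without replicate 4 the falls were 2.92-fold for TrnH (adjusted p = 0.00103, log2 -2.80 in 20 libraries), 2.80-fold for TrnV (adjusted p = 0.00235, log2 -2.34 in 20 libraries) and 3.02-fold for TrnP (adjusted p = 0.00293, log2 -3.38 in 20 libraries). TrnT, for threonine, fell 2.81-fold (adjusted p = 0.0181, log2 -2.76 in 20 libraries) and TrnY, for tyrosine, fell 2.70-fold (adjusted p = 0.0147, log2 -2.17 in 20 libraries).

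Of the 22 mitochondrial transfer RNAs, a list added after the values were seen, 20 fell in 20 libraries and 14 without replicate 4, beside 9.10% and 2.09% of all genes tested. Their summed level was 439, 364, 250 and 1820 CPM in MPTP-Veh and 174, 146, 116 and 170 CPM in MPTP-SU, so the groups did not overlap. ND6, a complex I subunit and the protein-coding gene on the light strand of mitochondrial DNA, was at 123, 96.5, 78.1 and 149 CPM in MPTP-Veh and at 37.2, 31.8, 32.2 and 40.4 CPM in MPTP-SU. It fell 2.80-fold without replicate 4 (log2 -1.48, SE 0.156, adjusted p = 4.04e-05, log2 -1.65 in 20 libraries), and its Con libraries lay at 62.5 to 86.3 CPM, also above all MPTP-SU libraries. The strand setting of the counting is not given in the sources used here, so reads from a gene and from the transcript opposite to it cannot be told apart.

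The abundant mitochondrial messages were not called. Of the 13 messages for respiratory chain proteins, ND6 alone was a DEG in either fit. COX1, the catalytic subunit of cytochrome c oxidase, had a log2 fold change of 0.15 without replicate 4 (adjusted p = 0.533) and CYTB, of complex III, -0.17 (adjusted p = 0.528). The large ribosomal RNA of mitochondria, mt-Rnr2, rose 1.95-fold (log2 0.96, SE 0.288, adjusted p = 0.031, log2 1.28 in 20 libraries), from 11700, 11100, 9590 and 2390 CPM in MPTP-Veh to 24900, 25500, 12200 and 21700 CPM in MPTP-SU. MPTP-SU replicate 3 lay just above the highest MPTP-Veh library. The small ribosomal RNA, mt-Rnr1, was called in 20 libraries (log2 1.09, adjusted p = 0.0491) and had an adjusted p of 0.076 without replicate 4. The libraries were selected for poly(A), which ribosomal and transfer RNAs carry at most in short form.

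Nuclear genes of complex I were lower in MPTP-SU as a list. Complex I subunits fell in 11 of 38 (28.9%, beside 9.10% of all genes) and rose in 0 of 38 in 20 libraries. Without MPTP-Veh replicate 4 the count was 5 of 38 (13.2%, beside 2.09% of all genes), with a median log2 fold change of -0.27 for the list and 0.02 for all genes. The 5 were Ndufb3, Ndufa13, Ndufb7, Ndufv3 and Ndufa12. Neither this list nor those below were compared with genes of like transcript length. Of the 3818 tested genes with the shortest transcripts (up to 2153 bases), 178 fell without replicate 4, and their median log2 fold change was -0.11. Ndufb3 was at 46.1, 43.6, 40.5 and 50.2 CPM in MPTP-Veh and 28.3, 26.8, 31.8 and 27.3 CPM in MPTP-SU, a 1.52-fold fall without replicate 4 (adjusted p = 0.000135, log2 -0.66 in 20 libraries). Ndufb7 was at 68.2, 63.4, 61.6 and 406 CPM against 34.1, 33, 40.2 and 49.3 CPM, a 1.65-fold fall (adjusted p = 0.00118, log2 -1.93 in 20 libraries). The groups did not overlap in either gene, and MPTP-Veh replicate 4 was far out in Ndufb7 and not in Ndufb3. In 20 of 38 subunits the groups did not overlap downwards and in 0 upwards, beside 11.3% and 10.6% of all genes tested.

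For complexes II to V, 11 of 43 nuclear genes fell in 20 libraries and 3 without replicate 4, namely Atp5h and Atp5k of the ATP synthase and its inhibitor Atpif1 (25.6% and 6.98%, beside 9.10% and 2.09% of all genes). Of the 43 genes 15 had a positive log2 fold change without replicate 4. The groups did not overlap downwards in 12 and upwards in 5, beside 11.3% and 10.6% of all genes tested. Atp5h was at 310, 278, 272 and 424 CPM in MPTP-Veh and at 184, 182, 178 and 183 CPM in MPTP-SU (1.58-fold lower, adjusted p = 7.8e-05, log2 -0.82 in 20 libraries). Atpif1 was at 197, 191, 189 and 233 CPM against 121, 120, 119 and 119 CPM (1.61-fold lower, adjusted p = 9.47e-05, log2 -0.76 in 20 libraries). Both genes had narrow groups with a wide gap between them. Glycolysis genes fell in 6 of 17 in 20 libraries (35.3%, beside 9.10% of all genes), and 0 of 17 were called without replicate 4, with a median log2 fold change of -0.17.

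In lists of protein synthesis and breakdown the calls without MPTP-Veh replicate 4 were few. Cytosolic ribosomal proteins fell in 20 of 80 and rose in 0 of 80 in 20 libraries, and 5 fell without replicate 4 (25% and 6.25%, beside 9.10% and 2.09% of all genes), with medians of -0.29 and -0.23. Rpl21, of the large subunit, was at 399, 374, 373 and 493 CPM in MPTP-Veh and 246, 249, 230 and 274 CPM in MPTP-SU (1.53-fold lower without replicate 4, adjusted p = 0.000158, log2 -0.71 in 20 libraries). Members of this family have near-identical pseudogenes, and how their reads were shared out is not known. Mitochondrial ribosomal proteins fell in 17 of 78 and, without replicate 4, in 2 (Mrpl51 and Mrps26), which at 2.56% is near the 2.09% of all genes. Proteasome subunits fell in 9 of 37 and, without replicate 4, in 1 (2.7%, also near that of all genes), the lid subunit Psmd7 (log2 fold change -0.59, adjusted p = 9.47e-05, log2 -1.08 in 20 libraries).

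Among 33 splicing factors of the hnRNP and SR families, 1 rose and 4 fell in 20 libraries (3.03% and 12.1%, beside 4.35% and 9.10% of all genes). Without replicate 4, 3 fell (9.09%, beside 2.09% of all genes). Hnrnpm was at 146, 117, 122 and 362 CPM in MPTP-Veh and 70.8, 74, 65.7 and 79.5 CPM in MPTP-SU (1.77-fold lower, adjusted p = 0.000152, log2 -1.36 in 20 libraries), and Hnrnph3 fell 1.71-fold (adjusted p = 0.000158, log2 -0.87 in 20 libraries). Chaperones of the DnaJ, Hsp70 and Hsp90 families fell in 8 of 60 (13.3%, beside 9.10% of all genes) and rose in 2 (3.33%, beside 4.35%). Without replicate 4, 3 fell (4.92%, beside 2.09%), among them Dnajc8, a spliceosome-associated member (1.58-fold lower, adjusted p = 9.47e-05, log2 -0.76 in 20 libraries).

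**Figure D4:**
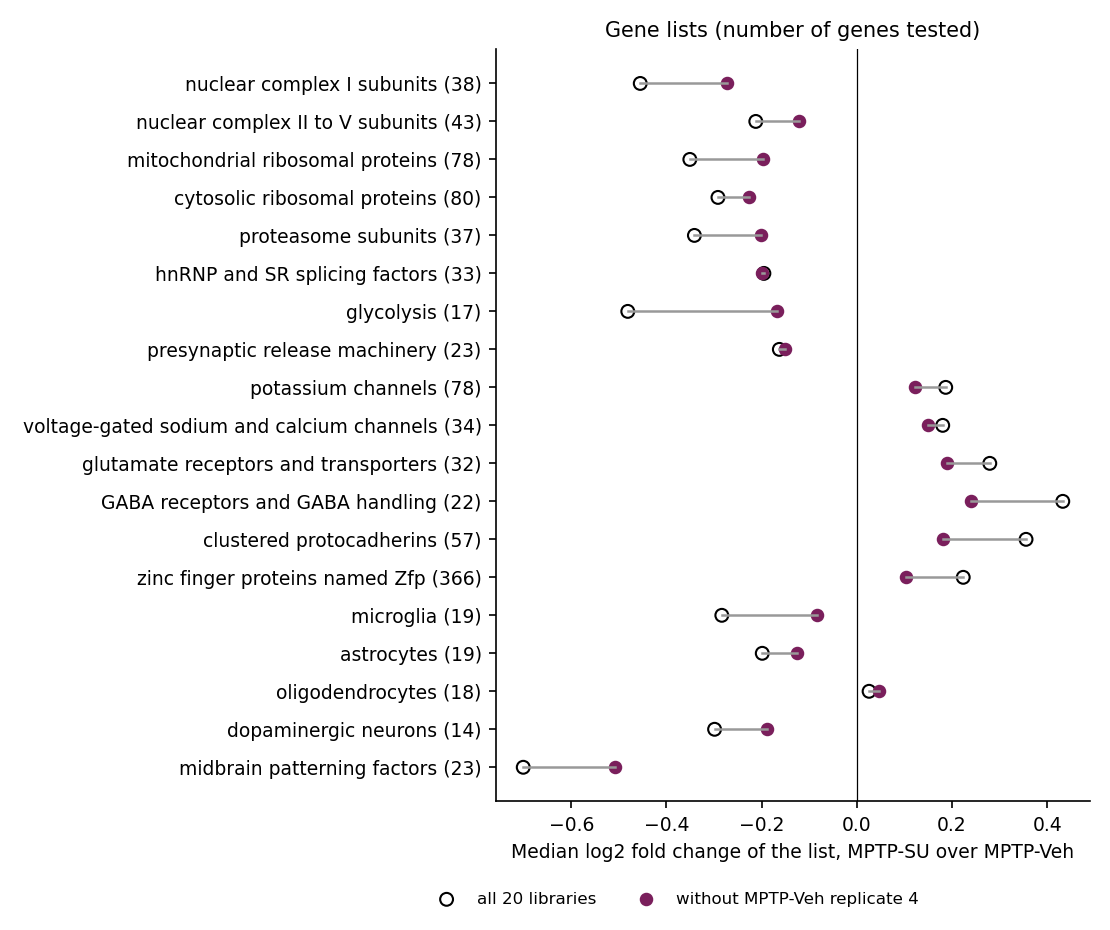
Each row is 1 gene list with the number of its genes tested, and the horizontal axis gives the median log2 fold change of the list (MPTP-SU over MPTP-Veh) in 20 libraries (open circles) and without MPTP-Veh replicate 4 (filled circles). The lists of nuclear respiratory chain, ribosome and proteasome genes lie left of 0 in both fits, and those of ion channels, transmitter receptors and protocadherins lie right of it, mostly nearer to 0 without replicate 4.

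Antioxidant genes were split. Sod1, the cytosolic superoxide dismutase, was at 223, 198, 197 and 395 CPM in MPTP-Veh and 117, 111, 114 and 142 CPM in MPTP-SU, a 1.70-fold fall without replicate 4 (log2 -0.77, SE 0.0998, adjusted p = 0.000152, log2 -1.06 in 20 libraries). Nqo1, a quinone reductase and a classical target of the transcription factor NRF2, was at 3.11, 3.6, 3.55 and 3.29 CPM against 5.5, 4.92, 5.11 and 5.43 CPM, a 1.53-fold rise (log2 0.61, SE 0.122, adjusted p = 0.00313, log2 0.62 in 20 libraries). The MPTP-Veh libraries were tight and below all others in Nqo1, replicate 4 included, and Con lay at 4.77 to 5.2 CPM. Of 22 genes of the NRF2 pathway, 2 rose (Nqo1 and Gclm) and 2 fell in 20 libraries, 9.09% each, beside 4.35% rising and 9.10% falling of all genes. Nqo1 was the only 1 called without replicate 4 (4.55%, beside 1.31% rising of all genes). Of 16 superoxide dismutases and peroxidases, 1 rose (6.25%) and 3 fell (18.8%) in 20 libraries. Sod1 alone was called without replicate 4 (6.25%, beside 2.09% falling of all genes). Among 15 genes of inherited Parkinson's disease, 2 rose and 2 fell in 20 libraries (13.3% each), and 1 fell without replicate 4 (6.67%). Park7, whose product DJ-1 protects against oxidative stress, was the only 1 called without replicate 4, at 107, 92, 87.8 and 329 CPM in MPTP-Veh and 56.5, 57.1, 63.5 and 74.2 CPM in MPTP-SU (1.52-fold lower, adjusted p = 0.00143, log2 -1.29 in 20 libraries).

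The promoters of these genes were searched for 2 motifs on both strands in windows from 250 bases before to 50 after the annotated start (RefSeq, GRCm38.p6). The core of the motif of NRF1, a regulator of nuclear genes for mitochondria, is TGCGCA, which reads the same on both strands. It was found in 14.4% of 12556 tested genes with a window, in 10.1% of 148 rising and 18.9% of 254 falling DEGs of both fits, in 10 of 34 complex I genes (29.4%) and in 21 of 69 mitochondrial ribosomal protein genes (30.4%). The antioxidant response element TGACNNNGC, bound by NRF2, was found in 16.5% of all, in 14.2% of the rising and 18.1% of the falling DEGs and in 7 of 18 genes of the NRF2 pathway (38.9%). The 2 motifs share no fixed letters that force an overlap. Before the start of Nqo1 and of the 5 complex I genes named above, neither the element (Nqo1) nor the core (complex I) was present in these windows. Shown here are 3 falling genes with the core before the start, printed with the core in capitals, which are Park7 (chr4:150909963-150910070, minus strand), Atpif1 (chr4:132535528-132535576, minus strand) and Hnrnph3 (chr10:63023850-63024053, minus strand). The sequences are those of the gene's strand, 5′ to 3′, and a match describes the letters only.
Park7: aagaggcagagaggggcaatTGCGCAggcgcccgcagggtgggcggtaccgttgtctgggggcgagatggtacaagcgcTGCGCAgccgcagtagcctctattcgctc
Atpif1: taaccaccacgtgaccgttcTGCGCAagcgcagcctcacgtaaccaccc
Hnrnph3: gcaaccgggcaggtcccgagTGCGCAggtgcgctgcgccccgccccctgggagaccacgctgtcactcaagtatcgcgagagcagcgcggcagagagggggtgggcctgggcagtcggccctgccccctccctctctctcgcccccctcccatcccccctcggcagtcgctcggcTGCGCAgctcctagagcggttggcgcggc

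Several ion channel genes were higher in MPTP-SU. Potassium channels and their partners set the resting potential and the firing rate of neurons. In 20 libraries 10 of 78 rose and 2 fell (12.8% and 2.56%, beside 4.35% and 9.10% of all genes). Without replicate 4, 4 rose (5.13%, beside 1.31% of all genes). The 4 were Kcnip4, Kcnd2, Kcnt2 and Kcnc2. Kcnd2, the pore of an A-type current, was at 90.2, 92.5, 86.5 and 32 CPM in MPTP-Veh and 128, 157, 126 and 132 CPM in MPTP-SU (1.51-fold higher, adjusted p = 0.00411, log2 0.85 in 20 libraries), and Kcnip4, which binds such channels, was at 159, 183, 148 and 45.7 CPM against 227, 339, 245 and 298 CPM (1.70-fold higher, adjusted p = 0.0222, log2 1.05 in 20 libraries). Groups did not overlap in either gene, and MPTP-Veh replicate 4 was the lowest library in both. In the fit that left out MPTP-SU replicate 2 and kept MPTP-Veh replicate 4, none of the 4 was called (adjusted p = 0.0807 for Kcnip4, 0.0636 for Kcnd2, 0.0768 for Kcnt2 and 0.0633 for Kcnc2). With the thalamus covariate in 20 libraries, where 38 DEGs were left, none of the 4 was called either. Of 34 voltage-gated sodium and calcium channel genes, 5 rose (14.7%) and 3 fell (8.82%) in 20 libraries, beside 4.35% and 9.10% of all genes. Cacnb4, an auxiliary calcium channel subunit, was the only 1 called without replicate 4 (1.63-fold higher, adjusted p = 0.00707, log2 0.98 in 20 libraries). That is 2.94% of the list, beside 1.31% rising of all genes.

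Among 22 genes of GABA receptors and GABA handling, 1 rose without replicate 4 (4.55%, beside 1.31% of all genes). This was Gabra4, a subunit of the GABA-A receptor that was also called in 20 libraries. It was at 31.5, 78.9, 49.9 and 7.81 CPM in MPTP-Veh and 66.6, 223, 227 and 168 CPM in MPTP-SU, a 3.20-fold rise without replicate 4 (log2 1.68, SE 0.55, adjusted p = 0.0471, log2 2.02 in 20 libraries). MPTP-SU replicate 1 lay within the MPTP-Veh range, so the groups overlapped. Its adjusted p was 0.077 when MPTP-SU replicate 2 was dropped from the 20 libraries and 0.0662 when replicate 3 was. Its level ran with the thalamus markers, being highest in MPTP-SU replicates 2 to 4 and, within MPTP-Veh, in replicate 2. Of 32 glutamate receptors and transporters, 1 rose (Grm3) and 1 fell (Grin2d) in 20 libraries, 3.12% each, beside 4.35% and 9.10% of all genes. Without replicate 4 edgeR called 0, with a list median of 0.19.

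Clustered protocadherins, adhesion proteins by which neurons tell their own branches from those of others, had 2 rising members of 57 in both fits, a share of 3.51% beside 4.35% of all genes in 20 libraries and 1.31% without replicate 4. Pcdhb11 was at 1.56, 2.16, 1.93 and 1.41 CPM in MPTP-Veh and 4.36, 4.71, 3.25 and 3.67 CPM in MPTP-SU (2.11-fold higher, adjusted p = 0.00216, log2 1.16 in 20 libraries), and Pcdhac1 rose 2.02-fold (adjusted p = 0.0221, log2 1.07 in 20 libraries). These genes share sequence with their neighbours in the cluster, so the split of reads among them is uncertain. Of 366 zinc finger genes named Zfp, 19 rose (5.19%) and 18 fell (4.92%) in 20 libraries, and 5 rose (1.37%) and 1 fell without replicate 4, where 1.31% of all genes rose. Circadian clock genes rose in 3 of 19 and, without replicate 4, in 2 (15.8% and 10.5%, beside 4.35% and 1.31% of all genes). The 2 were the transcription factors Rorb (1.68-fold, adjusted p = 0.0367, log2 0.95 in 20 libraries) and Hlf (1.77-fold, adjusted p = 0.0443, log2 1.00 in 20 libraries). Of 22 immediate early genes 1 rose (Dusp6) and 1 fell (Jund) in 20 libraries, 4.55% each, beside 4.35% rising and 9.10% falling of all genes. Dusp6, a phosphatase of ERK kinases, was also called without replicate 4 (1.66-fold higher, adjusted p = 0.0455, log2 0.85 in 20 libraries). Leaving out MPTP-SU replicate 2 instead of MPTP-Veh replicate 4 gave an adjusted p of 0.0758 for Rorb, 0.0727 for Hlf and 0.0733 for Dusp6, and leaving out MPTP-SU replicate 3 gave 0.0504, 0.0551 and 0.0626. The thalamus covariate in 20 libraries also ended the calls of Hlf and Dusp6.

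Some neurofilament and midbrain patterning genes were lower in MPTP-SU. Neurofilaments are the intermediate filaments of large axons, and 2 of 5 fell in both fits (40%, beside 9.10% and 2.09% of all genes). Nefm was at 1040, 763, 797 and 2510 CPM in MPTP-Veh and 437, 436, 438 and 487 CPM in MPTP-SU (1.93-fold lower, adjusted p = 0.00322, log2 -1.51 in 20 libraries), and Nefh was at 713, 611, 613 and 821 CPM against 359, 352, 392 and 413 CPM (1.70-fold lower, adjusted p = 0.00411, log2 -0.86 in 20 libraries). The MPTP-SU libraries were close to each other and below all of MPTP-Veh in both genes.

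Of 23 transcription factors that pattern the midbrain in development, 6 fell and 0 rose in 20 libraries, and 3 fell without replicate 4. The shares falling were 26.1% and 13%, beside 9.10% and 2.09% of all genes, with list medians of -0.70 and -0.51. En1, which is needed for dopaminergic neurons to survive, was at 14.9, 19.8, 15.1 and 46.3 CPM in MPTP-Veh and 6.98, 4.85, 6.39 and 10.3 CPM in MPTP-SU, a 2.33-fold fall without replicate 4 (log2 -1.22, SE 0.28, adjusted p = 0.00729, log2 -1.75 in 20 libraries). Pax5 was at 16.3, 12, 11.2 and 13.3 CPM against 6.44, 2.39, 2.96 and 3.82 CPM, a 3.37-fold fall (log2 -1.75, SE 0.484, adjusted p = 0.0206, log2 -1.76 in 20 libraries). Replicate 4 was inside the MPTP-Veh range for Pax5 and far above it for En1. Gata3, a factor of GABAergic and serotonergic neurons, fell 2.11-fold (adjusted p = 0.0284, log2 -1.85 in 20 libraries). Con libraries overlapped with both groups in Pax5 (2.59 to 14.6 CPM), and in En1 (8.59 to 11.5 CPM) they lay below all of MPTP-Veh. Cyp26b1, which breaks down retinoic acid, was at 13.8, 12.8, 6.51 and 31.3 CPM against 5.23, 4.64, 1.39 and 3.37 CPM, a 3.02-fold fall (log2 -1.59, SE 0.477, adjusted p = 0.0309, log2 -2.13 in 20 libraries). The summed level of 14 pons and medulla markers was 25.8, 17.9, 14.2 and 23.1 CPM in MPTP-Veh replicates 1 to 4. In MPTP-SU it was 16, 9.7, 7.55 and 8 CPM, and the groups overlapped. Of 6 such markers tested without replicate 4, 0 were called, with a median log2 fold change of -0.95. Whether a difference in dissection lies behind the falls of En1, Pax5 and Gata3 was not tested.

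Th and Slc6a3, which define dopaminergic neurons, did not pass the test in either fit. Th, the rate-limiting enzyme of dopamine synthesis, was at 17, 70.3, 60.2 and 110 CPM in MPTP-Veh and 20.4, 27.2, 54.6 and 72.6 CPM in MPTP-SU. Slc6a3, the dopamine transporter, was at 17.7, 91, 92.2 and 57 CPM against 24.8, 40.6, 86.3 and 128 CPM. The libraries of each group spread widely, over several-fold, and the groups overlapped. Without replicate 4 the log2 fold change was -0.18 for Th (SE 0.43, adjusted p = 0.825) and 0.06 for Slc6a3 (SE 0.522, adjusted p = 0.958). Con lay at 26.4 to 58.8 CPM for Th and 44.4 to 105 CPM for Slc6a3, within the range of both groups. In bulk tissue fewer cells and less RNA per cell cannot be told apart.

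Of the 14 dopaminergic markers, 2 fell in both fits (14.3%, beside 9.10% and 2.09% of all genes) and 0 rose, with 10 of 14 below 0 in both fits and medians of -0.30 and -0.19. Drd2, the D2 dopamine receptor, was at 26.8, 33.8, 36.6 and 38.6 CPM in MPTP-Veh and 21.9, 19.5, 19.1 and 23.2 CPM in MPTP-SU (1.55-fold lower, adjusted p = 0.00863, log2 -0.70 in 20 libraries). Sncg, gamma-synuclein, was at 41.9, 42.5, 46.6 and 192 CPM against 22.3, 10.7, 13.4 and 21.3 CPM (2.59-fold lower, adjusted p = 0.00257, log2 -2.25 in 20 libraries). Neither gene had overlapping groups, and the summed level of the list ran from 543 to 1060 CPM in MPTP-Veh and from 550 to 874 CPM in MPTP-SU. Serotonergic markers fell in 3 of 7 in 20 libraries and in 1 (Gata3) without replicate 4 (42.9% and 14.3%, beside 9.10% and 2.09% of all genes). Tph2, the enzyme of serotonin synthesis in the brain, was at 49.3, 54.4, 14.4 and 110 CPM against 39.4, 5.46, 4.94 and 9.68 CPM (adjusted p = 0.266 without replicate 4).

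**Figure D5:**
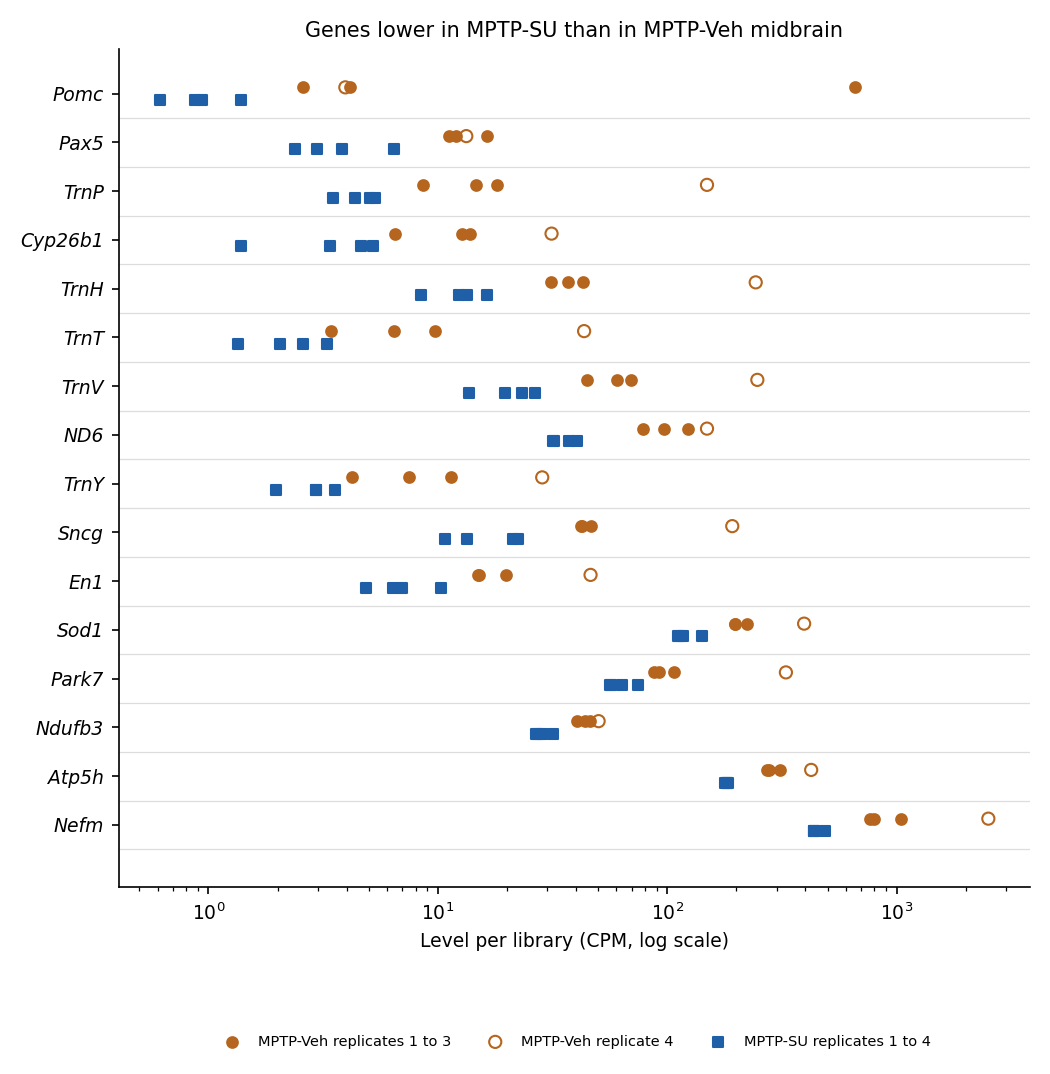
Each row is 1 gene at its level in CPM (log axis), with the symbols as in the plot of rising genes: 9 of the 12 genes with the largest fall, those above 0.6 CPM in every MPTP-SU library, and below them 7 genes described in the text. In each row every square lies left of every circle, which the rule of choice required of the 9. For Pomc 1 MPTP-Veh library lies at 656 CPM while the other MPTP-Veh libraries lie under 5 CPM.

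Neurotrophic factors and the targets of the antagonists gave no call without MPTP-Veh replicate 4. Bdnf, a neurotrophin that supports dopaminergic neurons, was at 14.6, 13.3, 22.1 and 14.3 CPM in MPTP-Veh and 19, 19.5, 14.1 and 16.6 CPM in MPTP-SU, with overlapping groups (log2 fold change 0.05 without replicate 4, SE 0.172, adjusted p = 0.887). Of 23 neurotrophic factors and receptors 2 fell in 20 libraries, Mdk and Ptn (8.7%, beside 9.10% of all genes). Without replicate 4 edgeR called 0, although Ptn, the growth factor pleiotrophin, kept an adjusted p of 0.000353 at a log2 fold change of -0.53, short of the 1.5-fold limit. Cnr1, which encodes CB1, was at 50.4, 35, 59.5 and 8.47 CPM against 87.3, 74, 57.6 and 47.3 CPM. Its groups overlapped, and the log2 fold change was 0.79 in 20 libraries (SE 0.353, adjusted p = 0.105) and 0.46 without replicate 4 (SE 0.209, adjusted p = 0.149). Con lay at 56.9 to 81.1 CPM for Cnr1.

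Of 9 genes of the endocannabinoid system, 2 rose in 20 libraries (22.2%, beside 4.35% of all genes), Dagla and Napepld, enzymes that make endocannabinoids. Without replicate 4 edgeR called 0 (adjusted p = 0.105 and 0.106). Pparg, which encodes PPARγ, was at 1.09, 0.589, 0.843 and 0.47 CPM in MPTP-Veh and 1.74, 1.78, 1.28 and 0.514 CPM in MPTP-SU, with MPTP-SU replicate 4 inside the MPTP-Veh range (log2 0.67 without replicate 4, SE 0.462, adjusted p = 0.362). Of 13 PPAR receptors and coregulators and of 19 PPAR target genes, 1 rose and 1 fell in each list in 20 libraries, and 0 were called without replicate 4. That is 7.69% and 5.26% in each direction, beside 4.35% rising and 9.10% falling of all genes in 20 libraries.

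Calls among the astrocyte, microglia and inflammatory lists were made with MPTP-Veh replicate 4 in the fit and not without it. Gfap, the astrocyte filament protein, was at 259, 305, 228 and 970 CPM in MPTP-Veh and 163, 171, 317 and 208 CPM in MPTP-SU. It was called lower in 20 libraries (log2 -1.03, SE 0.344, adjusted p = 0.0429) and not without replicate 4 (-0.30, SE 0.189, adjusted p = 0.318). Aif1, the microglial protein Iba1, was at 5.68, 4.91, 3.86 and 17.9 CPM against 2.28, 3.41, 3.83 and 2.93 CPM. The groups just failed to overlap, and the adjusted p was 0.0199 in 20 libraries and 0.0524 without replicate 4. Itgam, which encodes CD11b, had a log2 fold change of 0.19 without replicate 4 (adjusted p = 0.275), Mapk14, which encodes the kinase p38α, of 0.13 (adjusted p = 0.318), and Fos, the immediate early gene used as a sign of neuronal activity, of 0.15 (adjusted p = 0.75).

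As groups, microglial markers fell in 4 of 19 (21.1%), astrocyte markers in 5 of 19 (26.3%) with 1 rising, and oligodendrocyte markers in 1 of 18 (5.56%) in 20 libraries. Of all genes 9.10% fell, and 0 members of these lists were called without replicate 4. Their summed levels in MPTP-Veh replicates 1 to 3 and in MPTP-SU were 413 to 463 and 394 to 453 CPM for microglia, 8770 to 9140 and 8240 to 8720 CPM for astrocytes, and 12500 to 15300 and 11500 to 14300 CPM for oligodendrocytes. Of these 3 lists, astrocytes were the one whose ranges did not overlap, with a narrow gap from 8720 to 8770 CPM. Con libraries, at 8470 to 9120 CPM, overlapped with both ranges. Without replicate 4 the groups did not overlap for 24.6% of all genes tested. Oligodendrocyte precursors had 2 rising markers of 8 in 20 libraries and 1 without replicate 4 (25% and 12.5%, beside 4.35% and 1.31% of all genes). The 1 was Lhfpl3, a membrane protein of these cells, at 48.5, 57.6, 59.3 and 9.22 CPM in MPTP-Veh and 92.8, 92.9, 90.9 and 84.8 CPM in MPTP-SU. With MPTP-Veh replicate 4 kept, its call was lost when any single MPTP-SU library was left out, and also with library size alone. Enpp6, the other, was called in 8 of 23 settings. Of 28 genes of inflammatory signalling, 1 rose (Il1r1) and 1 fell (Nfkbia) in 20 libraries, 3.57% each, beside 4.35% and 9.10% of all genes. Without replicate 4 edgeR called 0 of them.

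Transcripts typical of liver, and the hormone precursor Pomc, had the largest falls among the named genes. Alb, serum albumin, was at 12.4, 7.72, 9.34 and 154 CPM in MPTP-Veh and 0.537, 0.205, 0.0581 and 0 CPM in MPTP-SU (adjusted p = 4.04e-05 without replicate 4), and Apob, an apolipoprotein of liver and gut, was at 3.97, 2.62, 2.71 and 41.4 CPM against 0, 0, 0.0581 and 0 CPM (adjusted p = 9.47e-05). The urinary protein gene Mup2, a member of a family of near-identical copies, was at 1.87 to 32.3 CPM against 0 to 0.134 CPM (adjusted p = 0.00284). By the rule of choice MPTP-Veh libraries were above all MPTP-SU libraries in each gene, and replicate 4 was the highest by far. The summed level of 15 liver transcripts, a list added after the values were seen, was 33.6, 22.2, 24.1 and 358 CPM in MPTP-Veh and 3.89, 3.28, 2.5 and 3.3 CPM in MPTP-SU.

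The same liver list was at 15.6 to 41.4 CPM in Con, at 2.71 to 3.21 CPM in MPTP-SU+S and at 2.19 to 3.64 CPM in MPTP-SU+T. The 3 lung transcripts were at 2.11 to 32.7 CPM in MPTP-Veh, 1.43 to 3.25 CPM in Con and 0 to 1.03 CPM in MPTP-SU. All 12 SUEHP-treated libraries thus lay below all 8 others in the liver list, and in MPTP-SU 5 of its 15 genes were at 0 in every library. The sources used here give no processing day or batch for the libraries. For these and the other genes called, SUEHP treatment cannot be told apart from handling shared by the treated libraries, which was not tested. Without the genes of both lists 2221 DEGs were called in 20 libraries. Pomc, the precursor of melanocortins made in the hypothalamus and pituitary, was at 656, 4.12, 2.59 and 3.95 CPM in MPTP-Veh and 0.939, 0.615, 0.871 and 1.39 CPM in MPTP-SU (adjusted p = 0.00155). MPTP-Veh replicate 1 held nearly all of it, and the pituitary hormone genes Gh (91.3, 3.47, 14 and 0 CPM) and Prl (30.7, 1.24, 2.71 and 0 CPM) were also highest in that library. Pmch, the precursor of melanin-concentrating hormone, was at 0.72 to 1.79 CPM in MPTP-Veh and at 13.5, 28.3, 34.7 and 2.79 CPM in MPTP-SU (adjusted p = 0.22 without replicate 4), and reached 274 CPM in 1 Con library.

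The direction of change moved with transcript length. The 15252 tested genes with an annotated transcript were split into 4 bins of about equal size by the length of their longest GENCODE transcript. From the shortest to the longest bin the median log2 fold change was -0.23, -0.06, 0.03 and 0.19 in 20 libraries, and -0.11, -0.01, 0.04 and 0.12 without replicate 4. Genes that fell in both fits had a median length of 1988.5 bases, those that rose 4867 bases, and all tested genes 3353 bases. In the fit without replicate 4 the shortest bin held 21 rising and 178 falling DEGs, and the longest 94 and 25. Against the median profile, MPTP-Veh replicate 4 was shifted by a log2 value of 0.389 in the shortest bin and -0.414 in the longest, the largest shifts of the 20 libraries, and MPTP-SU replicates 1 and 2 by -0.095 and -0.119 in the shortest. With length and GC trends removed from each library, 1621 DEGs were called in 20 libraries, 460 higher and 1161 lower, of which 1166 were among the 2237. Calls lost with these trends removed included those of Atpif1 (log2 -0.38), Ndufa13 (-0.44), Nefh (-0.58), Drd2 (-0.46), Cacnb4 (0.58), Kcnt2 (0.39), Rorb (0.53) and, of the genes called in 20 libraries alone, Gclm, Grin2d, Il1r1, Mdk, Nfkbia, Jund, Gfap, Enpp6 and Napepld.

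The midbrain changes were set beside those in the spinal cord of the same groups with limma-voom over 40 libraries. The change differed between the tissues for 2125 of 17426 genes (12.2%, with 6.28% higher and 5.91% lower in midbrain), and for 605 of 17621 (3.43%, with 1.38% higher and 2.05% lower) when midbrain MPTP-Veh replicate 4 was left out. Of the 538 midbrain DEGs of both fits, 376 were also called for the difference with and without that library. The 538 were chosen by their change in the same midbrain libraries, so this count is no separate evidence of a difference. Among the genes above, the difference without replicate 4 was 1.75 for Ptpn4 (log2 midbrain change minus log2 spinal cord change, SE 0.424, adjusted p = 0.00654), 0.97 for Edil3 (SE 0.192, adjusted p = 0.00126), -1.64 for ND6 (SE 0.225, adjusted p = 5.87e-05), -0.62 for Ndufb3 (SE 0.112, adjusted p = 0.000438) and 0.84 for Nqo1 (SE 0.204, adjusted p = 0.00683). The spinal cord change itself was 0.02 for Ptpn4, 0.19 for ND6 and -0.22 for Nqo1 on the log2 scale, all at an adjusted p of 0.999. For Pax5, Cyp26b1 and Drd2 the difference was not called (adjusted p = 0.14, 0.257 and 0.1), so a midbrain change that differs from the spinal cord was not shown for them.

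The antagonist groups are placed beside these levels without a test. For Ptpn4 the range was 55.5 to 93.3 CPM in Con, 79.7 to 230 CPM in MPTP-SU+S and 65.3 to 291 CPM in MPTP-SU+T, so both antagonist groups spanned from the level of MPTP-Veh to that of MPTP-SU. ND6 was at 30.8 to 44.7 CPM in MPTP-SU+S and 32.7 to 44.3 CPM in MPTP-SU+T, like MPTP-SU. Sod1 was at 115 to 142 CPM in MPTP-SU+S and 118 to 157 CPM in MPTP-SU+T, with Con at 162 to 175 CPM above both. For Nqo1 MPTP-SU+S lay at 4.3 to 4.97 CPM and MPTP-SU+T at 4.61 to 4.99 CPM, above every MPTP-Veh library. Con was nearer to MPTP-Veh than to MPTP-SU in Ptpn4, and nearer to MPTP-SU in Nqo1. Nefm was at 544 to 757 CPM in Con, 432 to 776 CPM in MPTP-SU+S and 429 to 712 CPM in MPTP-SU+T.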

How the data were processed

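RNA was extracted from midbrain and spinal cord, and poly(A)-selected libraries were made with the Lexogen CORALL kit. Per the labels and the study's methods, reads were trimmed with fastp, aligned with STAR and quantified with Salmon on GRCm39, and the labels also list GATK without a role. Versions are not given in the sources used here. The deposited files hold expected counts per gene symbol, estimated by Salmon and rounded by the authors to whole numbers, 1 file per library, with no normalization. They were tested as counts.

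Counts of the 20 midbrain libraries (11958200 to 16639823 per library in the groups compared) were filtered with filterByExpr and scaled by TMM. MPTP-SU was compared with MPTP-Veh by the quasi-likelihood test of edgeR 4.0.16 in R 4.3.3, with a coefficient for each of the 5 groups, all of which share 1 estimate of spread, and p-values were Benjamini-Hochberg adjusted over all genes tested. The same fit was made without MPTP-Veh replicate 4, whose profile differed from all other libraries. The difference between tissues was tested by limma 3.58.1 (voom with a weight for each tissue). Levels are TMM-scaled CPM, which were not divided by length. Genes named first were the 12 rising and 12 falling DEGs of both fits with non-overlapping groups, at least 5 CPM and the largest log2 fold change without replicate 4. For each list up to 4 called members were also named, with 10 genes that the study measured otherwise, while Ndufa12, COX1, CYTB, mt-Rnr1, Prkcd, Tph2 and Pmch were chosen after their values were seen. The members, lists and rules were chosen with earlier results of these data known. Alternatives were DESeq2 1.42.0, limma-voom, other scalings and filters, a replicate block, left-out libraries and 2 added covariate or gene settings. Transfer RNA sequences came from GENCODE vM21 and promoter sequences from RefSeq (GRCm38.p6). Since the files' build is GRCm39, no coordinate is given for the counts. Replicate pairs differed by more than sampling noise, so every library was kept as a sample. With 4 libraries a group, low levels such as those of Pparg have wide errors. Some members of the list of GABA receptor genes are not reported here.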

Additional observations from a re-analysis of the deposited data

Results flagged for a closer look

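In a group of 4 libraries, the highest or lowest value can lie far from the nearest of the others by chance in about 1 of 20 groups, and 14 of 74 groups checked had such a value. In 10 of them the library was MPTP-Veh replicate 4, with Aif1 at 17.9 CPM, Alb at 154 CPM, Apob at 41.4 CPM, Gfap at 970 CPM, Itgam at 5.18 CPM, Mup2 at 32.3 CPM, TrnH at 243 CPM, TrnP at 149 CPM, TrnT at 43.4 CPM and TrnV at 247 CPM, and its rank correlation of 0.888 with the median profile was far out as well. The others were Pomc in MPTP-Veh replicate 1 (656 CPM), Bdnf in MPTP-Veh replicate 3 (22.1 CPM) and Apob in MPTP-SU replicate 3 (0.0581 CPM).

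The midbrain change differed from the spinal cord change, by limma-voom with and without midbrain MPTP-Veh replicate 4, for 18 of 34 genes checked. Of all genes tested, 12.2% were called for the difference in 40 libraries and 3.43% without that library. Of the genes checked, 24 were named for large midbrain changes in the same libraries, so the count tells little beyond that choice. On the log2 scale (midbrain minus spinal cord, 40 libraries) the difference was 2.29 for Ptpn4, 1.97 for Kitl, 1.73 for Pdp1, 1.53 for Il1rapl1, 1.52 for Vav3, 1.49 for Tlcd4, 1.37 for Megf9, 1.35 for Edil3, 1.34 for Tiparp and 1.29 for Cbln4. It was -1.8 for ND6, -2.62 for TrnH, -2.5 for TrnP, -2.38 for TrnT and -2.29 for TrnV. For the liver transcripts it was -7.23 for Alb, -7.09 for Apob and -8.11 for Mup2, which are fitted values of genes at or near 0 in MPTP-SU midbrain and no measure of size.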

How the results depend on the processing

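Leaving out 1 library at a time gave 572 to 3543 DEGs (115 to 1278 higher, 351 to 2265 lower), lowest without MPTP-Veh replicate 4 and next without MPTP-SU replicate 2 (618), replicate 3 (1073) and replicate 1 (1133), and highest without MPTP-Veh replicate 3. Settings that moved the counts by more than 1.5 times were the 8 libraries alone (0 DEGs, 0 higher, 0 lower), the 7 libraries alone (574, with 238 higher and 336 lower), limma-voom with sample weights (854, with 372 higher and 482 lower), the thalamus covariate (38, with 2 higher and 36 lower), library size alone (296 higher of 1856), limma-voom (862 lower of 1708), adjusted p alone (1227 higher of 3349) and the removed length and GC trend (460 higher). The cause was not tested. Among scalings, the share of DEGs that were higher in MPTP-SU was 32.4% with TMM and 15.9% with library size alone, and the median of all genes moved from 0.0007 to -0.03. DESeq2 called 2779.

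Without MPTP-Veh replicate 4, leaving out a further library gave 326 to 751 DEGs (94 to 300 higher, 232 to 451 lower), lowest without MPTP-Veh replicate 1, and 116 were higher without MPTP-SU replicate 2. DESeq2 gave 625, limma-voom 553 and the thalamus covariate 353, with 114 higher. For the tissue difference, the counts without MPTP-Veh replicate 4 were 605, with 244 higher and 361 lower, and edgeR gave 697 higher of 2115.

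The replicate numbers of the groups compared were not taken as pairs. The correlations of the deviations of same-numbered libraries were 0.231, 0.179, -0.0708 and 0.261, and 5 of 8 libraries correlated best with their own number. These values do not settle whether the numbers mark pairs. With a replicate block 2020 DEGs were called (768 higher and 1252 lower), 1883 of them among the 2237, and the tissue difference with the replicate block gave 2275.

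Of the 24 genes named first, 0 reversed, each was called in 17 to 22 settings, all 24 missed the threshold in the 8 libraries alone and 22 with the thalamus covariate. Leaving out MPTP-SU replicate 2 also ended the calls of Gpr63, Pdp1, mt-Rnr2 and Pax5, leaving out replicate 3 that of Pax5, and leaving out replicate 1 or 4 that of mt-Rnr2. Depth limited the precision of genes of a few CPM, and changes under 1.5-fold were left out by rule.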
